A study of Mus musculus with 6 samples.

Results

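The 8 genes described here are Rttn, Socs6, Timm21, Cyb5a, Cndp2, Zfp407, Zadh2 and Tshz1. They lie at the distal end of mouse chromosome 18, all on the centromeric side of Cd226. They were listed by symbol for their position, with earlier results of these data known, and are 8 of the 46095 genes in the count table. The rule itself uses no measured value. RNA was sequenced from bone marrow-derived macrophages of Cd226-/- mice and of wild-type (WT) mice, both of strain C57BL/6 and 56 days old, with 3 libraries per genotype. Marrow cells of both genotypes were turned into macrophages with the growth factor M-CSF (20 ng/ml for 7 days) and activated to the M1 type with 20 ng/ml IFN-γ plus 100 ng/ml LPS for 24 h. Cd226 encodes an activating adhesion receptor (DNAM-1) best known from T and NK cells. The labels do not say how the Cd226 allele was made, from which strain its stem cells came or for how long it was backcrossed, nor whether replicates came from separate mice; the spread behind each p-value is that between libraries and may be technical.

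When a gene is disrupted in stem cells of one mouse strain and the allele is bred onto another, a stretch of donor DNA on either side of the target is inherited with it. Genes in that passenger interval can differ in expression through their own regulatory variants, whatever the deleted gene does, and backcrossing shortens the interval only slowly. The question put to these genes is whether expression around Cd226 differed between the genotypes. A count table holds no base calls, so the strain origin of the flanking DNA was not tested.

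The differences lay in 3 neighbouring genes. Cyb5a, the cytochrome b5 of the endoplasmic reticulum, Cndp2, a cytosolic dipeptidase, and Timm21, a subunit of the mitochondrial import machinery, were lower in Cd226-/- macrophages, by 35.8%, 26.0% and 25.5%. They lie 4.23 to 4.49 Mb from Cd226. For Timm21 the groups overlapped, and its call was not made by DESeq2 or limma-voom. Neither the members closest to Cd226, Rttn and Socs6, nor the outer ones, Zfp407, Zadh2 and Tshz1, passed the test. All 8 passed the filter on low counts and all were tested. In edgeR's quasi-likelihood test with Benjamini-Hochberg adjustment over 13215 genes, 3 of the 8 members (37.5%) had an adjusted p under 0.05, against 30.9% of all tested genes. All 3 were lower in Cd226-/-, a direction called for 14.8% of tested genes, and 0 were higher, against 16.1%, with 0 higher also by DESeq2 and limma-voom and at an unadjusted p under 0.05. Counted in either direction, the 3 members are near the share of all tested genes. Counted as lower only, their 37.5% stands above 14.8%, a difference that rests on 8 genes and was not tested. The median log2 fold change of the members was -0.11, against -0.0045 over all tested genes.

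Library totals ranged from 16925955 to 18867799 counts in Cd226-/- and from 16838527 to 21658061 in WT, so that 1 count was worth 0.0452 to 0.0600 CPM (on TMM-scaled library sizes). On the second principal component (11.8% of variance) Cd226-/- replicate 1 stood apart from replicates 2 and 3. Cd226 itself, the targeted gene, had 11, 10 and 8 counts in Cd226-/- and 5, 17 and 23 counts in WT. The groups overlapped, at a depth-adjusted ratio of 0.671 with a 95% exact interval of 0.406 to 1.09 that covers counting error only, so Cd226 does not check the genotype labels.

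The genes are given on GRCm38, from RefSeq positions, moving away from Cd226 (chromosome 18, 89176954 to 89272232, plus strand). Rttn lies at 88971736 to 89131014 on the plus strand, with 0.0459 Mb between it and Cd226, and Socs6 at 88865169 to 88894364 on the minus strand, 0.283 Mb away. Then follow 3.91 Mb without a tested gene. Timm21 lies at 84946191 to 84951530 on the minus strand, Cyb5a at 84851338 to 84879871 on the plus strand and Cndp2 at 84667465 to 84685702 on the minus strand. Zfp407 (84207701 to 84589539, minus) begins 0.0779 Mb beyond Cndp2. Zadh2 (84088126 to 84097528, plus) and Tshz1 (84011627 to 84087708, minus) end the series 5.08 and 5.09 Mb from Cd226 and are separated by 0.000418 Mb.

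Per length, the 8 genes spanned a wide range of expression. In TPM (counts per exon length, scaled to the same sum in each library), Cndp2 averaged 494 ± 18.9 in Cd226-/- and 710 ± 8.78 in WT (SD, n = 3 each). Cyb5a followed with a level of 364 ± 24.5 TPM in Cd226-/- and 604 ± 17.1 TPM in WT. Zadh2 came next, with 80.2 ± 5.64 TPM in Cd226-/- and 87.1 ± 3.56 TPM in WT, and then Tshz1, with 37.5 ± 1.44 TPM in Cd226-/- and 40.7 ± 0.146 TPM in WT. Socs6, Timm21 and Zfp407 averaged 7.24, 6.81 and 6.53 TPM in Cd226-/- and 7.41, 9.71 and 6.82 TPM in WT. The levels of these 3 overlapped in Cd226-/-, and in WT the lowest Timm21 library (7.74 TPM) lay below the highest of Socs6 (8.02 TPM). Rttn was the least expressed member, at 1.29 ± 0.0548 TPM in Cd226-/- and 1.58 ± 0.0849 TPM in WT. TPM carries no TMM scaling, so it serves to rank the genes, and differences between genotypes are read from CPM. The Tshz1 groups, for example, separated in TPM but overlapped in CPM.

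**Figure D1:**
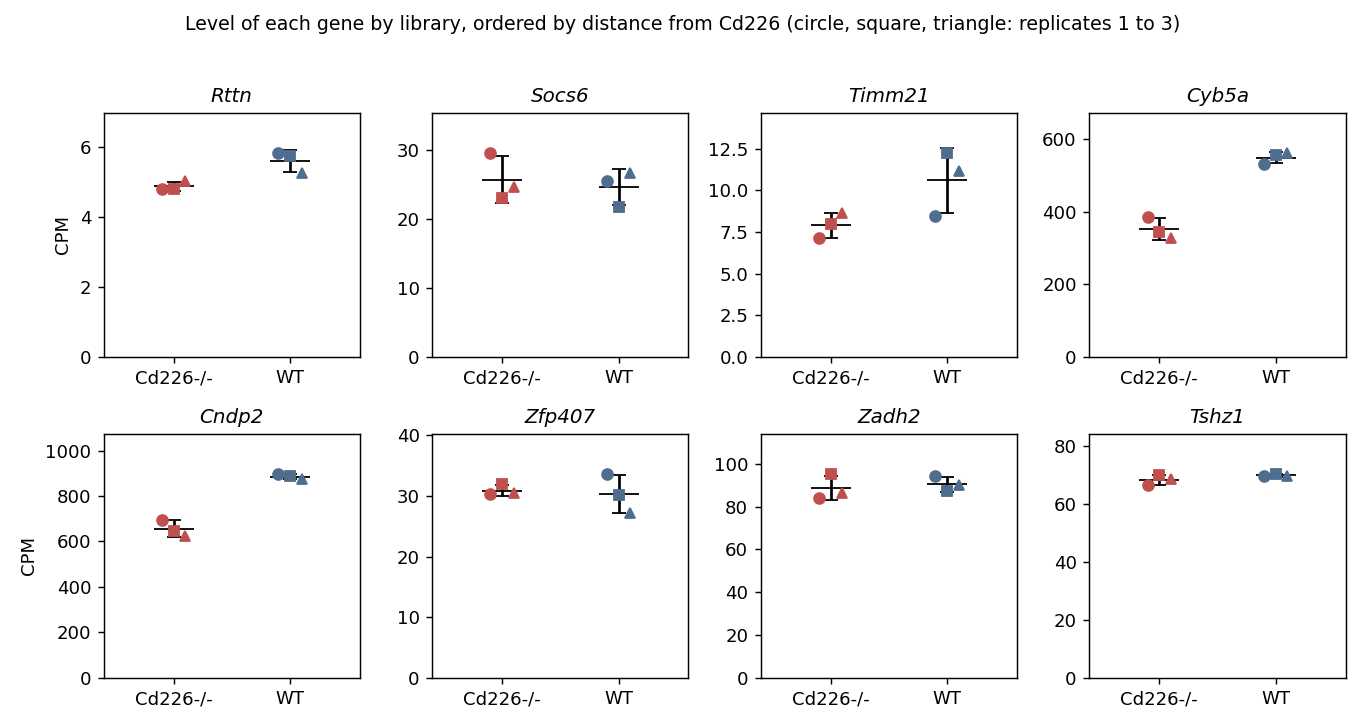
Level of each of the 8 genes in CPM (linear axis from 0) in the 3 Cd226-/- libraries (red) and the 3 WT libraries (blue), with mean and SD as bars. Cyb5a and Cndp2 separate the genotypes widely, Rttn narrowly, and the other 5 genes overlap.

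Cyb5a carried the largest difference among the 8. The protein is a membrane-bound heme carrier that passes electrons to fatty acid desaturases and to some cytochrome P450 enzymes. Its level was 387, 344 and 329 CPM in Cd226-/- replicates 1 to 3, against 531, 557 and 561 CPM in WT replicates 1 to 3. The groups did not overlap, and the highest Cd226-/- value was that of replicate 1. The log2 fold change was -0.64 ± 0.056 (SE), with adjusted p = 1.90e-08 in edgeR's test. The 95% interval of the fold was 0.592 to 0.697, and replicate 1 alone against the WT libraries gave a log2 fold change of -0.50 (adjusted p = 3.25e-08). Of all 13215 tested genes, 634 had a more negative log2 fold change, 23 of them among the 328 on chromosome 18.

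Cndp2 splits dipeptides in the cytosol and also joins lactate to amino acids. It was the most abundant member, with 696, 645 and 625 CPM in Cd226-/- and 896, 886 and 874 CPM in WT. The groups again did not overlap, and WT libraries differed little among themselves (coefficient of variation 1.21%, against 5.58% in Cd226-/-). The log2 fold change was -0.43 ± 0.051 (SE), adjusted p = 9.58e-07, with a 95% interval of the fold from 0.688 to 0.797. Cyb5a and Cndp2 averaged over 100 CPM. Of the 1914 tested genes that averaged 100 CPM or more, 18.7% were called lower and 29.7% higher.

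Timm21 is part of the TIM23 complex, which takes proteins with a presequence across the inner mitochondrial membrane. It had 129, 133 and 158 counts in Cd226-/- (7.11, 7.97 and 8.61 CPM), against 154, 209 and 247 counts in WT (8.44, 12.2 and 11.2 CPM). Here the groups overlapped, since WT replicate 1 lay below Cd226-/- replicate 3. The log2 fold change was -0.43 ± 0.15 (SE) with adjusted p = 0.0308, and the call rests on single libraries. The adjusted p was 0.0783 without Cd226-/- replicate 1, 0.0648 without Cd226-/- replicate 2, 0.153 without WT replicate 2 and 0.108 without WT replicate 3. It was also 0.0564 in DESeq2's Wald test and 0.0535 in limma-voom. Timm21 overlaps Fbxo15 in the GENCODE annotation. With the strand setting of the counting not given, reads of the pair cannot be told apart, but Fbxo15 held 3 counts over all 6 libraries. Cyb5a likewise overlaps Gm16146, which had 0 counts, and Rttn overlaps Mir6359, which had 0 counts too. Zfp407 overlaps AC152060.1 and Gm37216, for which no counts are given here.

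Rttn, which encodes the centriole protein rotatin, is the nearest tested gene to Cd226. Its counts were 87, 80 and 92 in Cd226-/-, against 106, 98 and 116 in WT. On the CPM scale the groups did not overlap, narrowly, with 4.80, 4.80 and 5.01 CPM in Cd226-/- and 5.81, 5.73 and 5.25 CPM in WT. Counting error alone is 11.2% at its lowest count, and at a log2 fold change of -0.20 ± 0.17 (SE) the gene missed the threshold (adjusted p = 0.396). The 95% interval of its fold, 0.686 to 1.11, includes the size of the difference seen in Timm21 and Cndp2. Counting members by overlap instead, 3 (Rttn, Cyb5a and Cndp2) had all Cd226-/- values below all WT values, against 22.3% of tested genes in that direction.

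Socs6 belongs to the suppressors of cytokine signalling, adaptors of ubiquitin ligases that act on cytokine and growth factor receptors. Its level was 29.5, 23.0 and 24.6 CPM in Cd226-/- and 25.5, 21.7 and 26.7 CPM in WT. The groups overlapped in part, with the highest value in Cd226-/- replicate 1 and the lowest in WT replicate 2. The log2 fold change was 0.056 ± 0.10 (SE), adjusted p = 0.709, and the 95% interval of the fold ran from 0.899 to 1.20. Without Cd226-/- replicate 1 the log2 fold change was -0.057, and without WT replicate 2 it was -0.026, so no direction is given for this gene.

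The 3 outermost genes did not pass the test. Zfp407, a zinc finger protein, had 30.3, 32.0 and 30.5 CPM in Cd226-/- and 33.6, 30.2 and 27.2 CPM in WT, with the Cd226-/- values inside the WT range. Zadh2, a prostaglandin reductase, had 84.2, 95.1 and 86.6 CPM in Cd226-/-, against 94.1, 87.1 and 90.1 CPM in WT. Tshz1, a transcription factor of the teashirt family, had 66.5, 70.0 and 68.5 CPM in Cd226-/-, against 69.6, 70.2 and 69.5 CPM in WT. These groups overlapped too. The 95% interval of the fold was 0.901 to 1.06 for Zadh2, 0.904 to 1.06 for Tshz1 and 0.904 to 1.15 for Zfp407 (adjusted p = 0.733, 0.722 and 0.829). None of these intervals reaches the fold of Cyb5a (0.642), Cndp2 (0.740) or Timm21 (0.745).

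**Figure D2:**
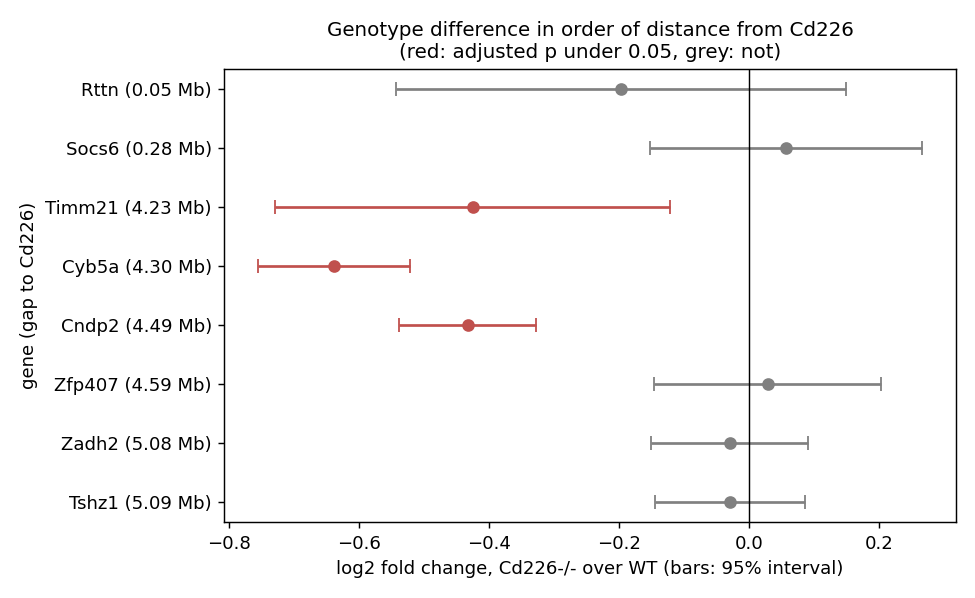
Log2 fold change of Cd226-/- over WT for each gene with its 95% interval, from the gene closest to Cd226 at the top to the most distant at the bottom. The intervals of Timm21, Cyb5a and Cndp2 (red) lie below 0, and those of the 2 closer and 3 more distant genes (grey) include 0.

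Ratios between neighbours within a library do not depend on scaling, and all 7 adjacent pairs were compared. Counts of Cndp2 over counts of Zfp407, the pair at the outer end of the 3 lowered genes, were 23.0, 20.2 and 20.5 in Cd226-/- and 26.7, 29.3 and 32.1 in WT. The ratio was lower in every Cd226-/- library, by 0.47 on the mean log2 scale. Cyb5a over Cndp2 was 0.555, 0.532 and 0.526 in Cd226-/- and 0.593, 0.628 and 0.641 in WT, again without overlap. Both pairs gave p = 0.1 in an exact two-sided permutation test, the smallest that 3 against 3 libraries allow, and 0.35 after Benjamini-Hochberg adjustment over the 7 pairs. Zadh2 over Tshz1 was 1.27, 1.36 and 1.26 in Cd226-/- and 1.35, 1.24 and 1.30 in WT, with the 2 groups on top of each other (exact permutation p = 1). The remaining 4 pairs gave exact permutation p-values of 0.3 to 0.6. Among them is Socs6 over Timm21, the pair at the inner end of the 3 lowered genes. This ratio was 4.15, 2.88 and 2.85 in Cd226-/- and 3.03, 1.78 and 2.39 in WT. It was higher in Cd226-/- by 0.47 on the mean log2 scale, but the groups overlapped (exact permutation p = 0.3).

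Other genes of the neighbourhood fill in the interval. Dok6, an adaptor of receptor tyrosine kinases that lies 0.0202 Mb beyond Cd226 towards the telomere, was too low to test, with 0, 1 and 4 counts in Cd226-/- and 7, 3 and 3 counts in WT. Tmx3, a thioredoxin-related protein of the endoplasmic reticulum 1.24 Mb beyond Cd226, had 84.7 ± 4.73 CPM in Cd226-/- and 85.1 ± 5.79 CPM in WT (SD, n = 3 each). Its log2 fold change was -0.0044 ± 0.061 (SE), adjusted p = 0.966. The pseudogene Eif3s6-ps2, 1.04 Mb beyond Cd226, had 10 to 14 counts in Cd226-/- and 3 to 12 in WT and did not pass (adjusted p = 0.299).

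Between Cd226 and Zfp407 also lie protein-coding genes that these macrophages hardly transcribe. Cndp1, the secreted relative of Cndp2, had 0 counts in all 6 libraries, which allows up to 0.136 to 0.180 CPM in a library. Fam69c, Gm17266, Neto1 and Cbln2 were at 0 as well. Within 5 Mb of Cd226 the table held 14 protein-coding genes besides Cd226, of which 7 were tested. With the Eif3s6-ps2 pseudogene, 8 genes were tested there, and the same 3 members were called, all lower. Within 1 Mb 0 of 2 tested genes were called, and within 2 Mb 0 of 4, by edgeR, DESeq2 and limma-voom alike. Of these genes 0 had an unadjusted p under 0.05 in any of the 3 tools. Over all tested genes 30.9% were called, so 0 of so few cannot show that expression near Cd226 was unchanged. On the log2 scale the standard error was 0.061 for Tmx3, 0.10 for Socs6, 0.17 for Rttn and 0.51 for Eif3s6-ps2.

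Between 5 and 10 Mb from Cd226, 14 genes were tested and 5 were called, here named after their values were seen. That is 35.7% (2 higher and 3 lower), near the 30.9% of all tested genes (16.1% higher and 14.8% lower). Pqlc1, a membrane protein, had 23.8 ± 1.74 CPM in Cd226-/- and 35.7 ± 3.89 CPM in WT (log2 fold change -0.59, adjusted p = 2.99e-05). Rbfa, a mitochondrial ribosome assembly factor, and Zfp236, a zinc finger protein, fell by 0.43 and 0.34 on the log2 scale. Zfp516, another zinc finger protein, was higher, with 48.4 ± 1.73 CPM in Cd226-/- and 39.0 ± 5.24 CPM in WT (log2 fold change 0.31, adjusted p = 0.00615). The pseudogene Gm17383 was higher too (log2 fold change 1.42). Without WT replicate 3, Zfp516 had adjusted p = 0.0530. With Cd226-/- replicate 1 as the only library of its genotype, Rbfa had adjusted p = 0.215.

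**Figure D3:**
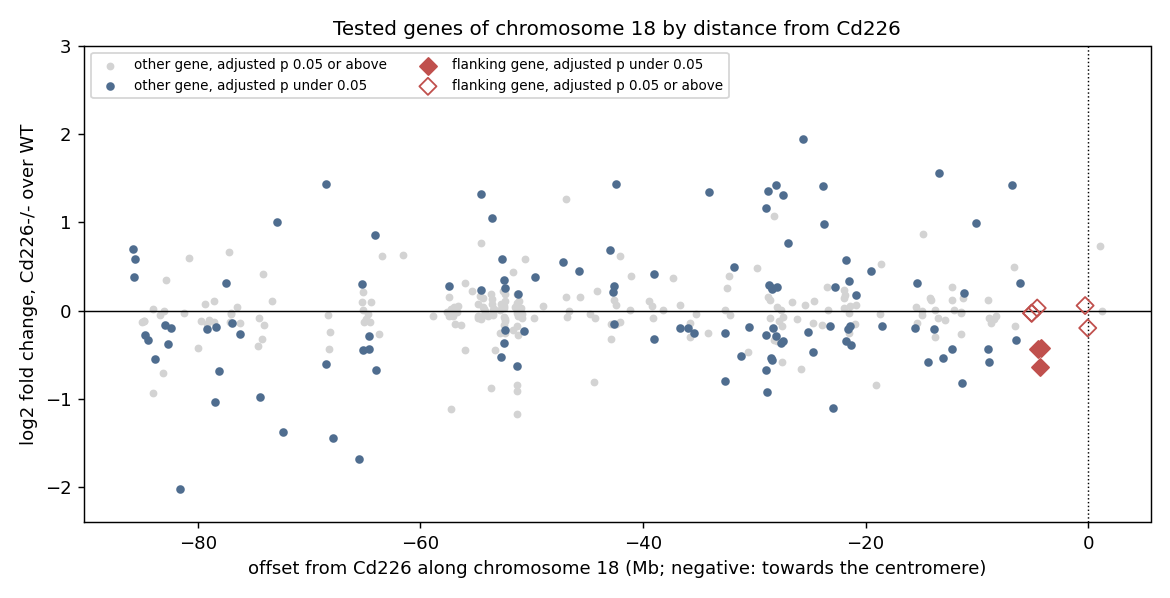
Log2 fold change of Cd226-/- over WT for the tested genes of chromosome 18 against their offset from Cd226 in Mb. Diamonds mark the 8 genes, all on the centromeric side of Cd226. Called genes (filled) occur along the whole chromosome, with 23 genes more negative than Cyb5a.

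Within 2 Mb 0 of 4 genes were called, too few to set a share against. From 5 Mb outward the share of genes called in either direction changed little with the window. It was 37.5% (3 of 8) within 5 Mb, 36.4% (8 of 22) within 10 Mb and 35.0% (107 of 306) on the rest of chromosome 18. The 10 Mb window contains the 5 Mb window. By direction, 0 were higher and 3 lower within 5 Mb, and 2 higher and 6 lower within 10 Mb. On the rest of the chromosome 47 were higher and 60 lower. The whole chromosome had 115 of 328 tested genes called (35.1%), 49 higher and 66 lower, against 30.9% of all tested genes. Its median absolute log2 fold change was 0.198, against 0.201 over all tested genes. Within 10 Mb of Cd226 this median was 0.186. Chromosome 18 stood second to chromosome 16 (35.6%) among the autosomes, whose lowest share was 27.0% on chromosome 17. These shares describe the calls of 1 fit, and their differences were not tested.

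**Figure D4:**
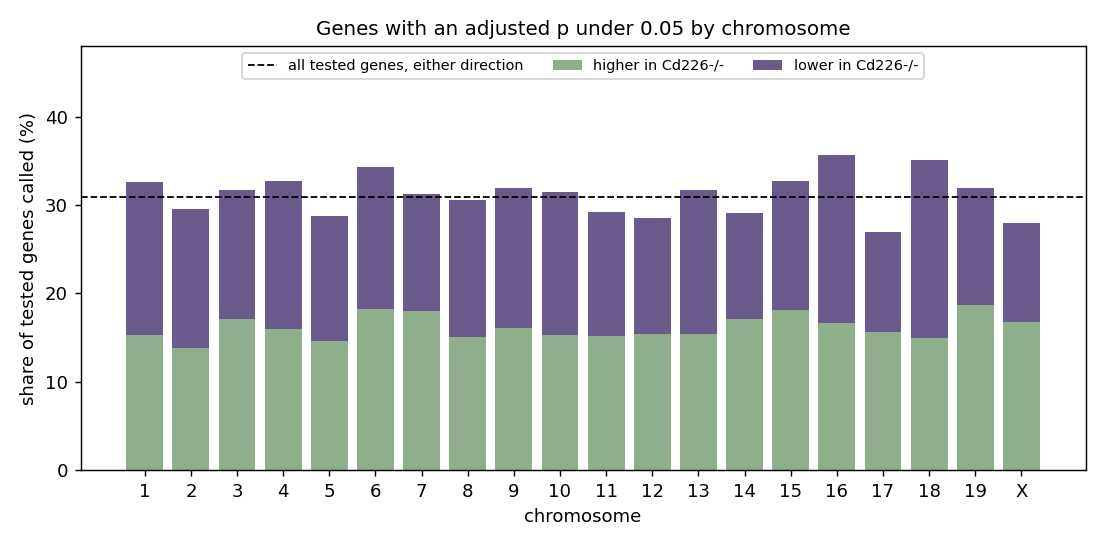
Share of tested genes with an adjusted p under 0.05 on each chromosome, stacked as higher and lower in Cd226-/-, with the share over all tested genes as a dashed line at 30.9%. Chromosome 18 reaches 35.1% and chromosome 16 reaches 35.6%.

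Relatives and partners of the members were taken from 8 lists chosen with earlier results known. Of their 45 tested genes on other chromosomes, 15 were called (33.3%, 10 higher and 5 lower), against 30.9% of all tested genes. In the cytochrome b5 list, 6 of 7 genes were tested, 2 rose and 3 fell, among them Cyb5a itself. Without Cyb5a, 4 of 5 were called (2 higher and 2 lower, median log2 fold change -0.24), against 30.9% of all tested genes. Cyb5b, the outer mitochondrial membrane form on chromosome 8, fell by 0.24 on the log2 scale (adjusted p = 8.72e-04). Cyb5r3, the main reductase that feeds electrons to cytochrome b5 and a chromosome 15 gene, had 199 ± 3.66 CPM in Cd226-/- and 249 ± 8.06 CPM in WT (adjusted p = 2.10e-05). The reductases Cyb5r1 and Cyb5r4 rose 1.23-fold and 1.11-fold. Outside chromosome 18, the called genes of this list fell on chromosomes 8 and 15 and rose on chromosomes 1 and 9. Whether they are linked to the difference in Cyb5a was not tested.

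Of 12 TIM23 translocase and motor genes, all tested, 1 rose and 2 fell (25.0%, below the 30.9% of all tested genes, with a median log2 fold change of -0.09). Besides Timm21 the one that fell was Grpel2, a nucleotide exchange factor of the import motor (16.8 ± 0.590 CPM in Cd226-/- and 21.3 ± 1.28 CPM in WT, adjusted p = 0.00754), which also lies on chromosome 18, so that on other chromosomes 1 of 9 was called. The pore subunit Timm23 had 27.1 ± 2.10 CPM in Cd226-/- and 27.1 ± 0.98 CPM in WT (adjusted p = 0.989). Romo1 rose 1.21-fold (adjusted p = 0.0371), a call lost without any single library, at adjusted p-values of 0.0507 without Cd226-/- replicate 1, 0.137 and 0.0600 without Cd226-/- replicates 2 and 3, and 0.0966, 0.0621 and 0.0709 without WT replicates 1 to 3.

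In the dipeptidase list 6 of 9 genes were tested, 2 rose and 1, Cndp2, fell (median log2 fold change 0.032), which leaves 2 of 5 called on other chromosomes. Lap3, a leucine aminopeptidase, rose 1.51-fold, to 94.4 ± 2.97 CPM in Cd226-/-, against 62.6 ± 2.72 CPM in WT (adjusted p = 4.90e-08). Npepps, another aminopeptidase, rose 1.15-fold, with adjusted p = 0.0827 without WT replicate 3. Of the prostaglandin reductase group 6 of 7 were tested, 1 rose and 1 fell (33.3%). Ptgr1, another prostaglandin reductase, had 205 ± 9.92 CPM in Cd226-/- and 268 ± 17.7 CPM in WT (adjusted p = 1.42e-05). Ptgr2, at a log2 fold change of -0.18, missed the threshold (adjusted p = 0.0741) but passed without WT replicate 3 (adjusted p = 0.0365). Tecr rose 1.15-fold, and was not called when Cd226-/- replicate 2, WT replicate 1 or WT replicate 3 was left out (adjusted p = 0.132, 0.155 and 0.0665).

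Of the 8 SOCS family genes, all tested, 2 rose and 1 fell (37.5%, against 30.9% of all tested genes, with a median log2 fold change of 0.15). Socs3, a feedback inhibitor of cytokine receptors, rose 1.39-fold (578 ± 34.6 CPM in Cd226-/- and 416 ± 26.0 CPM in WT, adjusted p = 1.01e-06). Socs1, the inhibitor of interferon-γ signalling, rose 1.35-fold, but was not called without Cd226-/- replicate 1 (adjusted p = 0.12). Socs5 fell by 0.37 on the log2 scale (adjusted p = 0.0145), but missed without Cd226-/- replicate 3 (0.0608) or WT replicate 1 (0.124). Cish, at 0.24, passed only without WT replicate 3 (adjusted p = 0.219 with all libraries and 0.0399 without that one). Socs2, Socs4 and Socs7 had log2 fold changes of 0.46, -0.07 and -0.09, none past the threshold. Among 4 partners of SOCS proteins in ubiquitin ligases, Eloc (Tceb1 in the table) rose 1.18-fold, with adjusted p = 0.111 without Cd226-/- replicate 2 and 0.0738 without WT replicate 1.

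Of 12 centriole genes 11 were tested, 1 rose and 2 fell (27.3%, near the 30.9% of all tested genes, with a median log2 fold change of -0.17). Plk4, the kinase that starts centriole duplication, rose 1.58-fold (12.4 ± 0.844 CPM in Cd226-/- and 7.82 ± 0.0624 CPM in WT, adjusted p = 2.57e-04). Cep192, a chromosome 18 gene for a centrosome scaffold protein, fell by 0.39 on the log2 scale, and Cep63 fell by 0.42. Of the teashirt family, Tshz2 was tested beside Tshz1 and had 4.59 ± 1.08 CPM in Cd226-/- and 3.69 ± 1.26 CPM in WT (adjusted p = 0.330), while Tshz3, at 5 to 13 counts, was too low to test.

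Markers of B cells and fibroblasts were higher in Cd226-/-. In bulk RNA, more cells of a type and more RNA per cell cannot be told apart. The macrophage genes Adgre1, Csf1r, Cd68, Itgam, Lyz2, Fcgr1 and Mertk summed to 18599 to 19396 CPM in Cd226-/- and 17171 to 19128 CPM in WT. Of these 7 genes 85.7% were called, against 30.9% of all tested genes, with 4 higher and 2, Csf1r and Itgam, lower. All 5 B cell markers were called higher, against 16.1% of all tested genes. Their sum was 30.0 to 39.3 CPM in Cd226-/- and 12.2 to 15.1 CPM in WT. All 4 fibroblast markers were called higher too, against the same 16.1%, with a sum of 619 to 640 CPM in Cd226-/- and 356 to 416 CPM in WT. Of the T and NK cell list, which includes Cd226, 3 of 6 genes were tested and 0 called by edgeR, DESeq2 or limma-voom (0 with an unadjusted p under 0.05), Trac was at 0, and the sum was 2.76 to 4.24 CPM in Cd226-/- and 2.92 to 3.89 CPM in WT. Of 5 neutrophil genes only S100a8 was tested, and the sum was 56.7 to 63.2 CPM in Cd226-/- and 49.2 to 62.1 CPM in WT. Of 4 dendritic cell genes 2 were tested and 0 called by edgeR, DESeq2 or limma-voom (1 with an unadjusted p under 0.05 in edgeR), with a sum of 5.84 to 6.89 CPM in Cd226-/- and 4.50 to 6.20 CPM in WT. The hepatocyte genes Alb, Apoa1, Ttr and Serpina1a summed to 0, 18.4 and 18.5 CPM in Cd226-/- replicates 1 to 3 and to at most 0.0584 CPM in WT. In Cd226-/- replicate 1, where all 4 hepatocyte genes were at 0, Cyb5a (387 CPM) and Cndp2 (696 CPM) lay below every WT library and above Cd226-/- replicates 2 and 3. The part of B cell, fibroblast and hepatocyte RNA in the differences of the 8 members was not tested.

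By the highest Pearson correlation of log2 CPM over the 6 libraries, among 9542 genes of at least 5 CPM, Cyb5a was most like Hsf1 (r = 0.998) and Cndp2 most like 2510009E07Rik (r = 0.999). Timm21 was most like Alkbh7 (r = 0.997) and Rttn most like Rrp12 (r = 0.997). Socs6, Tshz1, Zfp407 and Zadh2 were most like Tpd52 (r = 0.989), Orai2 (r = 0.994), Tmem134 (r = 0.970) and Uri1 (r = 0.964). These 6 points fall into 2 genotypes and share their library sizes, and the best of many genes is taken each time, so the values are descriptive.

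The direction of the 3 lowered genes was the same under every setting tried. Over 16 settings of tool, scaling, filter, threshold and libraries, the log2 fold change ranged from -0.71 to -0.50 for Cyb5a, from -0.49 to -0.34 for Cndp2 and from -0.57 to -0.32 for Timm21. Adjusted p-values reached at most 3.49e-06 for Cyb5a and 1.09e-04 for Cndp2, in each case with a library left out. Rttn ranged from -0.25 to -0.17 and Tshz1 from -0.08 to -0.01, with adjusted p-values of at least 0.271 and 0.277. The number of members called lower was 2 or 3 and the number called higher 0 in all 16.

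**Figure D5:**
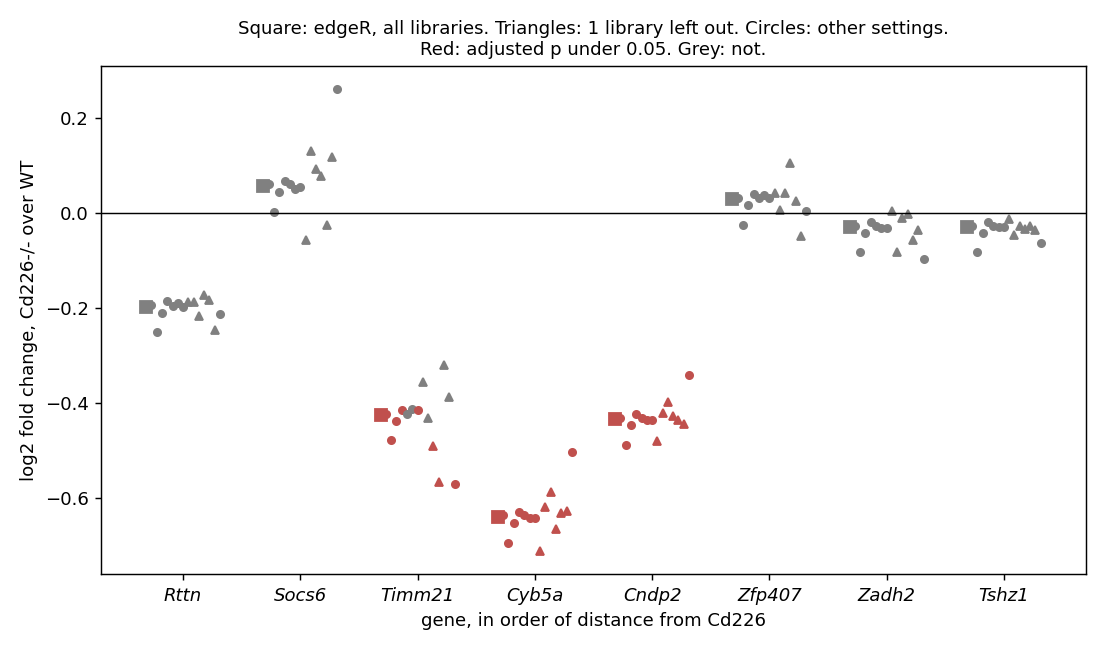
Log2 fold change of Cd226-/- over WT for each gene with edgeR on all libraries (squares), with 1 library left out (triangles) and under the other settings (circles), red where the adjusted p is under 0.05. Cyb5a and Cndp2 are red throughout, Timm21 is red in part, and the other 5 genes are grey throughout.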

How the data were processed

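The deposited data are raw read counts by gene symbol in a single table with a column for each of 6 libraries, and 0 of its columns were unused. Reads were aligned with HISAT2 to GRCm38, per the submitters' processing notes; the sources used here give no version, counting tool, annotation or strand setting. Counts were tested with edgeR 4.0.16 in R 4.3.3 (filterByExpr, TMM, robust quasi-likelihood F-test, two-sided, genotype as the only term), with p-values adjusted by Benjamini-Hochberg over 13215 genes. Standard errors were obtained from the F statistic, and 95% intervals use the test's degrees of freedom. Positions come from RefSeq on GRCm38.p6, which placed 98.2% of tested genes, and exon lengths and strands from GENCODE M21. Alternatives were DESeq2 1.42.0 (size factors, Wald test), limma 3.58.1 (voom), library-size scaling, no filter, a filter at 5 CPM, adjusted p under 0.01, a replicate block, each library left out, and Cd226-/- replicate 1 alone (spread then from WT only). Steps were tested on simulated data. The members and lists were chosen with earlier results of these data known. Named were all members, Cd226, tested genes within 2 Mb, called genes within 5 Mb, close paralogs, up to 3 called genes per list, and the gene most like each member; called genes 5 to 10 Mb away were added after their values were seen, and low or untested neighbours are named to fill in the interval. Libraries of a genotype differed beyond counting noise (chi-square over degrees of freedom 2.17 to 7.76 between pairs), and all 6 were kept.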

Additional observations from a re-analysis of the deposited data

How the results depend on the processing

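The number of genes called was 2636 at an adjusted p under 0.01, against 4086 at 0.05, and on chromosome 18 it was 76 at that threshold and 74 with Cd226-/- replicate 1 as the only library of its genotype, against 115. Timm21 missed the threshold in DESeq2's Wald test (log2 fold change -0.42, adjusted p = 0.0564), in limma-voom (-0.41, adjusted p = 0.0535) and at an adjusted p under 0.01 (-0.43); with each library left out it ranged from -0.57 to -0.32. Direction turned in 6 genes that never passed. With libraries left out, Socs6 ranged from -0.057 to 0.13, Zadh2 from -0.082 to 0.0038, Zfp407 from -0.049 to 0.11 and Tmx3 from -0.058 to 0.041. Zfp407 was -0.024 under library-size scaling and Tmx3 0.0072 with the filter at 5 CPM. With Cd226-/- replicate 1 alone, Socs4 was 0.037 and Socs7 0.055. Without a filter, 4 of 16 genes within 5 Mb were called, the pseudogene Gm5096 (0, 8 and 3 counts in Cd226-/- and 0 in each WT library) being the added one. Scaling by library size moved the median of all genes by -0.053. Same-numbered libraries did not deviate together (r = 0.067, 0.0072 and 0.0062), so the numbers do not pair them; with the replicate number as a block 4137 genes were called, and Timm21, Cyb5a and Cndp2 had log2 fold changes of -0.42, -0.64 and -0.43. Counting error alone is 11.2% at the lowest count of Rttn and 8.80% at that of Timm21, whose WT libraries varied by 18.4%.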

Other observations

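In consecutive 5 Mb stretches on the centromeric side of Cd226, which leaves out the 2 tested genes on its telomeric side, the share of tested genes called varied widely along chromosome 18. It was 3 of 6 genes in the stretch up to 5 Mb and 54.1% (20 of 37, 10 higher and 10 lower) between 25 and 30 Mb. It was 18.8% (12 of 64) between 50 and 55 Mb and 5.88% (1 of 17) between 55 and 60 Mb. Near the other end of the chromosome, between 80 and 85 Mb, 7 of 18 genes (38.9%) were called, all 7 lower. The 3 genes beyond were all called higher. Over all tested genes 30.9% were called, 14.8% lower and 16.1% higher. Only some of the stretches are named here. Several stretches hold few genes, and the differences between them were not tested.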
